A study of Mus musculus with 5 samples.

Results

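Glucose enters heart muscle through facilitative transporters of the SLC2 (GLUT) family and is trapped inside the cell as glucose 6-phosphate by hexokinases. Here 8 genes of these 2 families were described in I/R injured heart grafts: the transporters Slc2a1, Slc2a3, Slc2a4, Slc2a8 and Slc2a12 and the hexokinases Hk1, Hk2 and Hk3. Each was found by its symbol among the probe sets that the platform annotation gives to 1 gene only. All 8 genes were measured, by 9 of the 21789 such probe sets, since Hk1 has 2. In the adult heart most insulin-responsive uptake goes through Slc2a4 (GLUT4), which is stored in vesicles and moved to the surface, while Slc2a1 (GLUT1) sits at the surface and carries basal uptake. Slc2a1, Hk1 and Hk2 are also well known targets of the hypoxia-inducible factors.

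The expression arrays, Affymetrix Mouse Gene 1.0 ST with total RNA of whole grafts, came from 5 hearts of 8-week-old C57BL/6 mice, and no transgene or deletion is named in the labels. The I/R group (n = 3) consisted of 2553, 2555 and 2557, which were held cold in University of Wisconsin solution (4 °C, 18 h) and then implanted. The non-I/R group (n = 2), 2554 and 2556, skipped that storage. All were placed in the abdomen of a C57BL/6 recipient that kept its own heart, and all were harvested 24 h later according to the labels, so both groups had surgery and reperfusion in common. Values are log2 RMA signals, in which 1 unit is a doubling, and they are comparable between grafts for 1 probe set but not between probe sets.

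At an adjusted p of 0.05 limma called 0% of the 21789 probe sets. At an unadjusted 0.05 it called 3265 and the methods' t-test 2014, and none of the differences in single genes below survived the correction over all genes. With 3 grafts against 2, an exact permutation test cannot give a two-sided p under 0.1. Array medians lay between 6.58 and 6.65. The 10 heart muscle markers examined, such as troponin T (Tnnt2) and titin (Ttn), were bright on all arrays. Their mean signals were 12.42 to 12.71 in I/R and 13.01 to 13.13 in non-I/R grafts. Of these markers, 9 were lower in I/R grafts at the unadjusted threshold (against 7.17% of all genes). In whole tissue, fewer heart muscle cells and less RNA per cell cannot be told apart. Atrial markers differed within each group, with mean signals over 4 genes of 8.41 to 10.53 in I/R and 7.80 to 10.67 in non-I/R grafts. Leaving out non-I/R 2554 and I/R 2555, the graft of each group with the highest atrial markers, is given below where it bears on a result.

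The 9 probe sets split in direction. Slc2a4 was lower in I/R grafts at the unadjusted threshold (1 of 9, against 7.35% of all probe sets), and Slc2a1 and the RefSeq-matched set of Hk1 were higher (2 of 9, against 7.64%). At the 2-fold criterion used for these arrays, with an unadjusted p under 0.05, Slc2a4 was lower (1 of 9, against 1.0%) and none was higher (against 0.496%). The 3 I/R grafts lay below both non-I/R grafts for Slc2a4, Slc2a8 and Slc2a12 (3 of 9, against 16.2%) and above both for Slc2a1, Hk1 and Hk3 (3 of 9, against 15.8%). Slc2a3, Hk2 and the second Hk1 set overlapped between the groups.

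**Figure D1:**
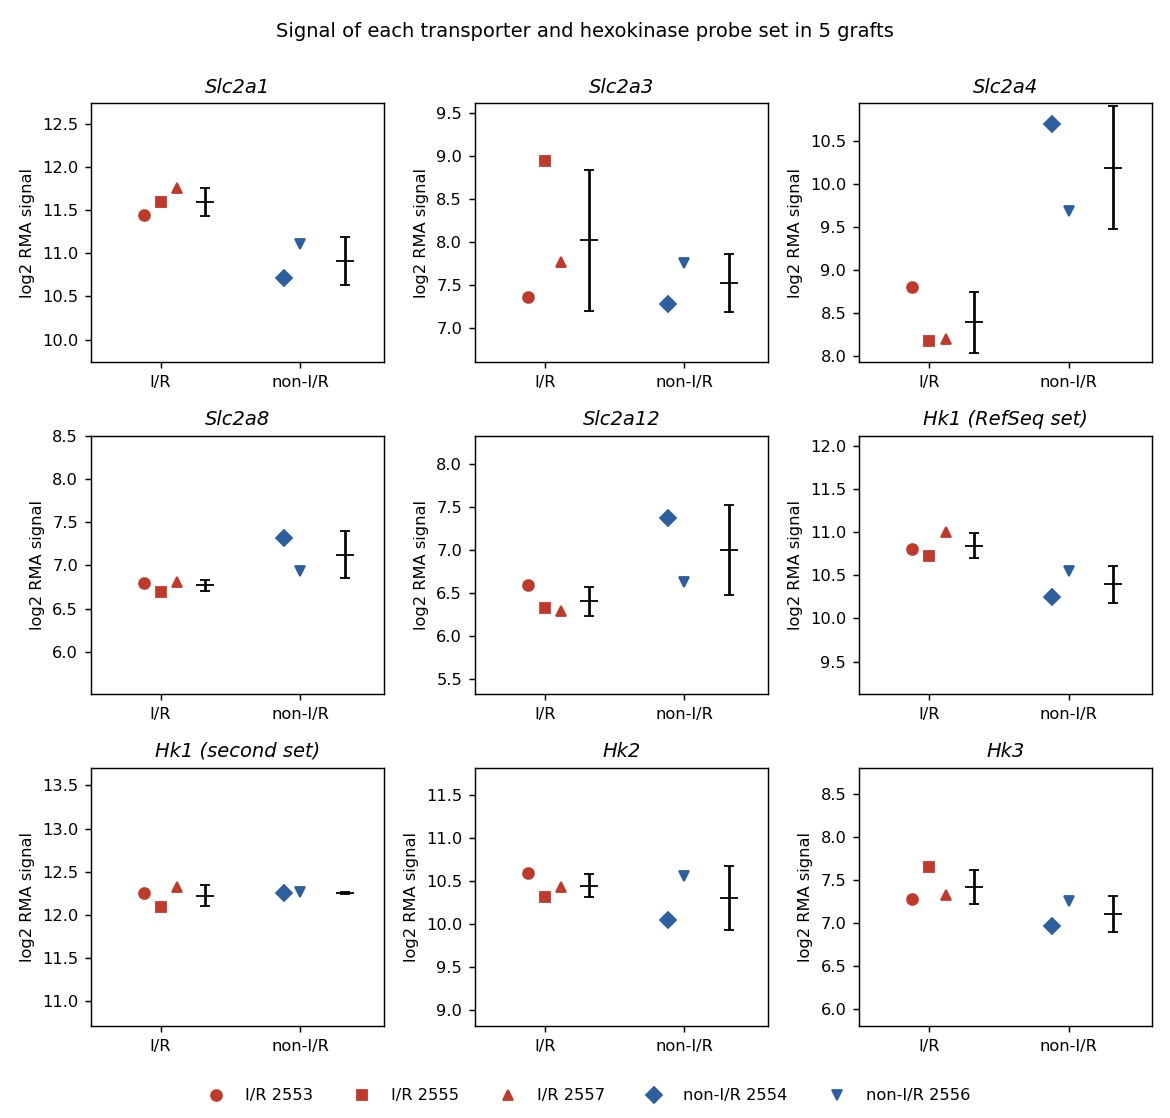
Log2 RMA signal (y axis, 3 units high in every panel) of the 9 probe sets in each graft, with I/R grafts in red (n = 3), non-I/R grafts in blue (n = 2) and the mean ± SD of each group in black. The widest gap between the groups is that of Slc2a4, where I/R grafts reach 8.80 at most and non-I/R grafts lie at 9.68 or above.

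Slc2a4, the insulin-responsive transporter of muscle and fat, showed the widest difference of the 8 genes. Its log2 signal was 8.80, 8.17 and 8.20 in I/R 2553, 2555 and 2557, against 10.69 and 9.68 in non-I/R 2554 and 2556. I/R 2555 and 2557 were close to each other, I/R 2553 was the least lowered, and the 2 non-I/R grafts differed from one another by about 1 unit. The group means were 8.39 ± 0.36 (SD, n = 3) in I/R and 10.19 ± 0.72 (SD, n = 2) in non-I/R grafts, which is 3.47-fold lower in I/R (log2 fold change -1.80, SE 0.41, 95% interval -2.95 to -0.64, limma adjusted p = 0.284). Leaving out 1 graft gave -2.30 to -1.29, and without I/R 2555 or I/R 2557 the unadjusted p was just over 0.05. Without both 2554 and 2555 it was -1.18 and did not pass. Of other tissues that use this transporter, 5 fat cell genes were dim, with mean signals of 5.60 to 5.65 in I/R and 5.62 to 5.66 in non-I/R grafts. The mean of 6 genes of fast skeletal muscle was 6.28 to 6.43 in I/R and 6.41 to 6.56 in non-I/R grafts and overlapped. Of the 6, 3 lay lower in every I/R graft (against 16.2% of all probe sets), without passing the threshold. The widest of these was Mybpc2, a myosin-binding protein of fast muscle, with 6.93, 6.74 and 7.22 in the I/R grafts and 7.94 and 7.24 in the non-I/R grafts. The others were Tnnt3 and Tnni2, with log2 fold changes of -0.095 and -0.21. The part of such cells in the Slc2a4 signal was not tested.

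Slc2a4 was also lower relative to the heart muscle markers. Taken on each array as Slc2a4 minus the mean of the 10 markers, a measure added after the data were seen, the values were -3.64, -4.25 and -4.51 in the I/R grafts and -2.44 and -3.33 in the non-I/R grafts. The groups did not overlap and differed by -1.25 (SE 0.47, exact permutation p = 0.1, the smallest possible), with -1.69 to -0.81 when 1 graft was left out, where -0.81 is without non-I/R 2554. Without both 2554 and 2555 it was -0.75. The zero of this scale is arbitrary, since it sets signals of different probe sets against each other, and only the difference between groups can be read. The markers were also much brighter than Slc2a4. Whether probe sets at such unlike signals respond equally to a change in RNA was not tested.

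Slc2a1, the basal transporter, went the other way. Its log2 signal was 11.44, 11.59 and 11.76 in I/R 2553, 2555 and 2557, against 10.72 and 11.11 in non-I/R 2554 and 2556. Every I/R graft was above both non-I/R grafts. The means were 11.60 ± 0.16 (SD, n = 3) and 10.91 ± 0.28 (SD, n = 2), which is 1.61-fold higher in I/R (log2 fold change 0.69, SE 0.17, 95% interval 0.21 to 1.16, limma adjusted p = 0.286). It ranged from 0.49 to 0.88 with 1 graft left out and lost the unadjusted threshold without non-I/R 2554, I/R 2555 or I/R 2557, and without both 2554 and 2555. Of the lists that mark other cells, 5 red cell genes had mean signals of 5.98 to 6.23 in I/R and 6.08 to 6.18 in non-I/R grafts. Red cells are known for GLUT1 in man, and whether those of these mice carry it was not examined. The 7 endothelial genes had mean signals of 10.20 to 10.55 in I/R and 10.25 in non-I/R grafts. The neutrophil genes differed between the groups in the same direction as Slc2a1. Of 11 measured of 12 listed, 10 had a higher mean in I/R grafts (against 9062 of 19938 genes). Of the 11, 5 were higher at the unadjusted threshold (against 7.91% of all genes), and the median log2 fold change was 0.88. Their mean signal was 8.97 to 9.68 in I/R and 8.30 to 8.66 in non-I/R grafts, without overlap. It was highest in I/R 2555, while Slc2a1 was highest in I/R 2557. The part of neutrophils in the Slc2a1 signal was not tested. Of 8 macrophage genes, 4 had a higher and 4 a lower mean in I/R grafts, and none passed the threshold. The median log2 fold change of these 8 was -0.0041.

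**Figure D2:**
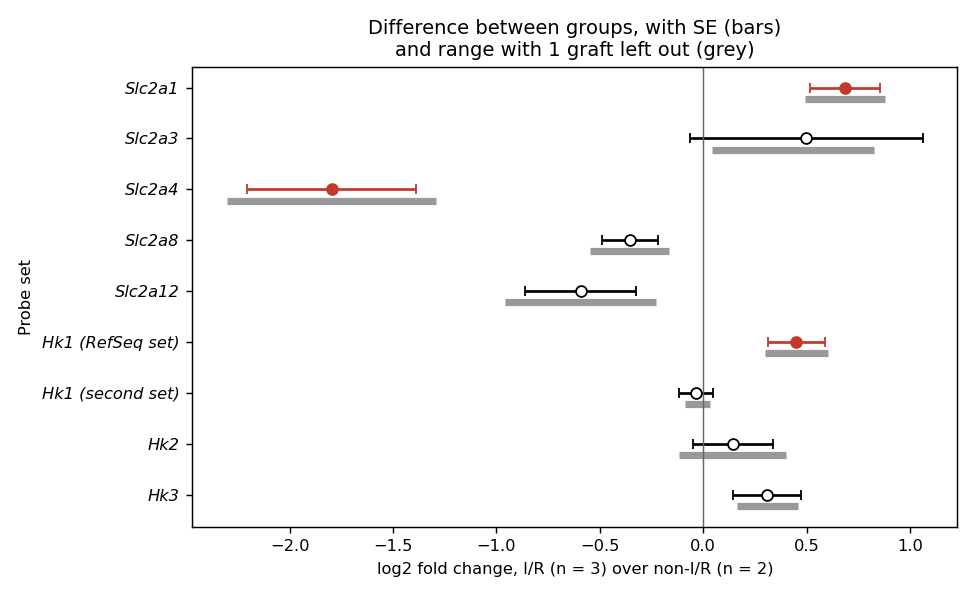
Log2 fold change of I/R (n = 3) over non-I/R grafts (n = 2) on the x axis for each probe set (y axis), with the SE from limma as bars and the range with 1 graft left out in grey. Filled red points passed an unadjusted p of 0.05. Slc2a4 at -1.80 and Slc2a1 at 0.69 stay on their own side of 0 in all 5 fits with 1 graft left out, and those of Hk2 and the second Hk1 set cross 0.

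The sequence before the start of Slc2a1 is shown because Slc2a1 was higher in I/R grafts and its window carries a match to ACGTG. These letters are a form of the core of the hypoxia response element. That core can also read GCGTG, a form that was not counted here. The stretch holds the 250 bases before the annotated start (RefSeq, GRCm38.p6, chr4:119108495-119108744, plus strand), 5′ to 3′, with the match on either strand (ACGTG or CACGT) in capitals.
Slc2a1: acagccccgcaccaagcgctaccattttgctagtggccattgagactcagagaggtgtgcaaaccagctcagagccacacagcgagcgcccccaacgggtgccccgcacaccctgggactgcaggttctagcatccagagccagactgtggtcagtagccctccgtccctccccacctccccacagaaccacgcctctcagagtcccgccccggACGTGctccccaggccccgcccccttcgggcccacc
The match begins 36 bases before the start. On either strand ACGTG occurs in 16.6% of 32851 such windows of the mouse annotation, and GGGCGG, the GC box bound by Sp1, in 32.7%, and the Slc2a1 window holds 2 matches to GGGCGG. Windows were found for 6 of the 8 genes, all but Slc2a3 and Slc2a4. The windows of Slc2a8 and Slc2a12 held neither motif, and that of Hk3 held 1 ACGTG. A match of letters is not a binding site, and no binding was measured.

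Within each array, Slc2a1 and Slc2a4 can be set against each other, with the same caution about the zero of the scale. The log2 signal of Slc2a1 minus that of Slc2a4 was 2.64, 3.42 and 3.56 in I/R 2553, 2555 and 2557, against 0.023 and 1.42 in non-I/R 2554 and 2556. All I/R grafts were above both non-I/R grafts, and the non-I/R grafts were the farther apart. The means of 3.21 ± 0.50 (SD, n = 3) and 0.72 ± 0.99 (SD, n = 2) differed by 2.48 (SE 0.64, exact permutation p = 0.1, the smallest possible). With 1 graft left out the difference was 1.78 to 3.18, and without both 2554 and 2555 it was 1.67.

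**Figure D3:**
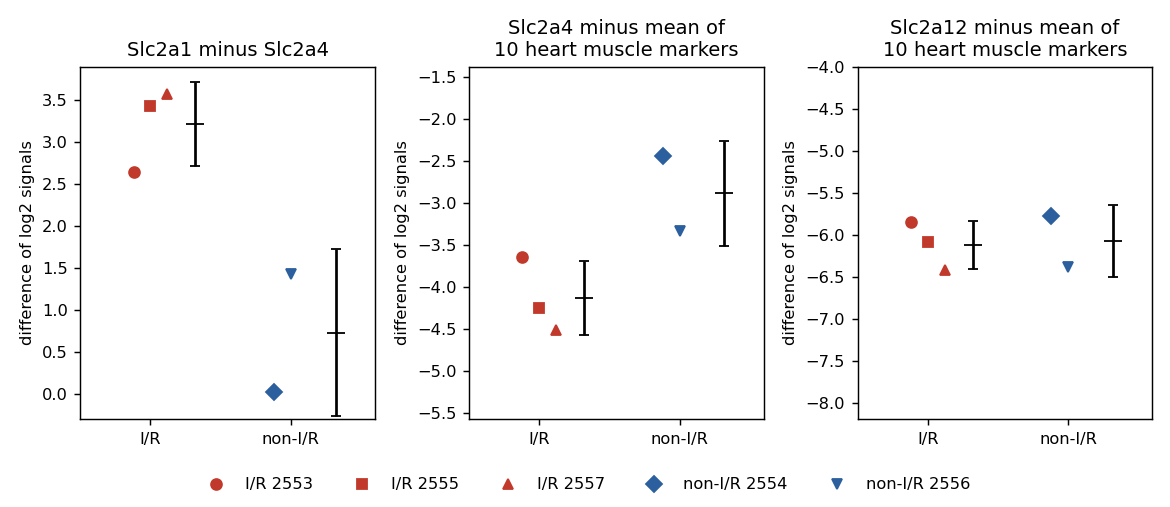
Difference of log2 signals within each array (y axis) for I/R (red, n = 3) and non-I/R grafts (blue, n = 2), with mean ± SD in black. Slc2a1 minus Slc2a4 (left) and Slc2a4 minus heart muscle markers (middle) separate the groups, and Slc2a12 minus heart muscle markers (right) does not. The height of each scale is arbitrary.

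Slc2a12, a second transporter of heart and muscle that responds to insulin, had signals of 6.60, 6.33 and 6.29 in I/R 2553, 2555 and 2557 and 7.37 and 6.64 in non-I/R 2554 and 2556. The groups did not overlap, but I/R 2553 and non-I/R 2556 nearly met. Its log2 fold change, -0.59 (SE 0.27, limma adjusted p = 0.410), was -0.23 without non-I/R 2554 and -0.96 without non-I/R 2556. Without both 2554 and 2555 it was -0.19. Set against the heart muscle markers, the groups overlapped and differed by -0.045 (SE 0.31, exact permutation p = 0.8). Signals of Slc2a12 lay near the array medians of 6.58 to 6.65, unlike those of Slc2a4. The limit on setting unlike signals against each other therefore holds for Slc2a12 as well. Slc2a8, a transporter kept mainly in compartments inside the cell, had signals of 6.80, 6.70 and 6.81 in the I/R grafts and 7.32 and 6.93 in non-I/R 2554 and 2556. Its I/R grafts lay close together, and its signals too were near the array medians. The log2 fold change, -0.36 (SE 0.13, limma adjusted p = 0.350), was -0.16 without non-I/R 2554 and -0.55 without non-I/R 2556. Without both 2554 and 2555 it was -0.13.

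Slc2a3 (GLUT3), the high-affinity transporter of neurons, platelets and white blood cells, followed 1 graft and not the groups. Its signals were 7.36, 8.93 and 7.76 in I/R 2553, 2555 and 2557, against 7.28 and 7.76 in non-I/R 2554 and 2556. I/R 2555 stood alone, and I/R 2553 lay between the 2 non-I/R grafts. The log2 fold change was 0.50 (SE 0.56, 95% interval -1.09 to 2.09), and 0.040 without I/R 2555. In that graft the 4 measured platelet genes of 5 listed were also highest, with a mean signal of 10.45, while the other 2 I/R grafts lay at 8.83 and 9.24 and the non-I/R grafts at 9.22 and 9.14. The platelet glycoprotein Gp9 had 9.43 in I/R 2555, 6.81 and 7.46 in the other I/R grafts and 7.56 and 7.45 in the non-I/R grafts. The neutrophil mean given above was also highest in I/R 2555. The part of either cell type in the Slc2a3 signal was not tested.

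Hexokinases phosphorylate the glucose that the transporters bring in. Hk1 is the form of most tissues, Hk2 that of insulin-responsive muscle, both able to bind mitochondria, and Hk3 is found mainly in myeloid cells. For Hk1 the signals were 10.81, 10.73 and 11.00 in I/R 2553, 2555 and 2557, against 10.24 and 10.55 in non-I/R 2554 and 2556, from the probe set matched to its RefSeq transcripts. All I/R grafts were above both non-I/R grafts. Hk1 was 1.37-fold higher in I/R (log2 fold change 0.45, SE 0.14, 95% interval 0.057 to 0.84, limma adjusted p = 0.308), with 0.30 to 0.60 when 1 graft was left out. Without both 2554 and 2555, Hk1 was higher by 0.36 in log2 signal. It lost the unadjusted threshold under the methods' t-test and in 4 of the 5 fits without 1 graft, namely without non-I/R 2554 or any 1 of the I/R grafts. The neutrophil genes differed between the groups in the same direction as Hk1. Their mean was highest in I/R 2555, where Hk1 was lowest among the I/R grafts. Their part in the Hk1 signal was not tested.

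Hk2 did not separate the groups. It had signals of 10.59, 10.32 and 10.43 in I/R 2553, 2555 and 2557 and of 10.04 and 10.56 in non-I/R 2554 and 2556, so that non-I/R 2556 was above 2 of the I/R grafts. The log2 fold change was 0.14 (SE 0.19, 95% interval -0.41 to 0.69), and it changed sign to -0.12 without non-I/R 2554. Within arrays, Hk2 minus Hk1 (RefSeq-matched set) was -0.22, -0.41 and -0.57 in the I/R grafts and -0.20 and 0.012 in the non-I/R grafts. I/R 2553 and non-I/R 2554 nearly met, and the groups differed by -0.31 (SE 0.15, exact permutation p = 0.2). With the brighter Hk1 set described below, the difference was 0.18 (SE 0.21, exact permutation p = 0.6). Hk3 had signals of 7.28, 7.65 and 7.32 in the I/R grafts and 6.96 and 7.26 in non-I/R 2554 and 2556, with I/R 2553 just above non-I/R 2556. The difference of 0.31 in log2 signal (SE 0.16, limma adjusted p = 0.459) was in the same direction as 10 of the 11 neutrophil genes above. That difference was 0.16 without non-I/R 2554 and 0.046 without both 2554 and 2555. Of the 8 macrophage genes above, 4 had a higher and 4 a lower mean in I/R grafts. The part of either cell type in the Hk3 signal was not tested.

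The windows before the starts of the hexokinases are shown to set Hk1 beside Hk2, whose groups overlapped. For Hk1, which has 2 annotated starts, the stretch is the one at chr10:62340422-62340671 (minus strand), and for Hk2 it is chr6:82774455-82774704 (minus strand), both 250 bases, RefSeq, GRCm38.p6, 5′ to 3′, with ACGTG or CACGT in capitals.
Hk1: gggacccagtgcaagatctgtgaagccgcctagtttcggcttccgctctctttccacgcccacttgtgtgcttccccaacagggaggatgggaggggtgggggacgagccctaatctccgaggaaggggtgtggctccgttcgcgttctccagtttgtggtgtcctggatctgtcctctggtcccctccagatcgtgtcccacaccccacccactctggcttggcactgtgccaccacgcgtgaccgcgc
Hk2: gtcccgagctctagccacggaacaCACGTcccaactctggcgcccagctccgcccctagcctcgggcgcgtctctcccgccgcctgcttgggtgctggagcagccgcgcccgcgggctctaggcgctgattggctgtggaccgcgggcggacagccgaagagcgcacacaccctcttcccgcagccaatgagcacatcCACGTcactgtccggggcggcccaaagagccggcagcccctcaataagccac
The Hk2 window held 2 matches, which begin 226 and 52 bases before the start, and 3 of GGGCGG on either strand. Neither window of Hk1 held ACGTG or GGGCGG on either strand. The Hk1 stretch shown does hold GCGTG, the form that was not counted.

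The second Hk1 probe set did not behave as the first. It had signals of 12.25, 12.09 and 12.33 in I/R 2553, 2555 and 2557 and 12.25 and 12.26 in non-I/R 2554 and 2556, a log2 fold change of -0.035 (SE 0.083), with I/R 2555 lowest. It rests on 1 database entry, which the annotation also gives to 16 probe sets of the ribosomal protein gene Rpl17, each with several symbols. In those 16, I/R 2555 was lowest in every one and log2 fold changes ran from -0.020 to 0.11 (median 0.012). Measured as the root mean square of deviations from each set's own mean, the 16 sets were 0.017 to 0.072 from the second Hk1 set, and the RefSeq-matched Hk1 set was 0.257 from it. Statements on Hk1 here therefore use the RefSeq-matched set.

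**Figure D4:**
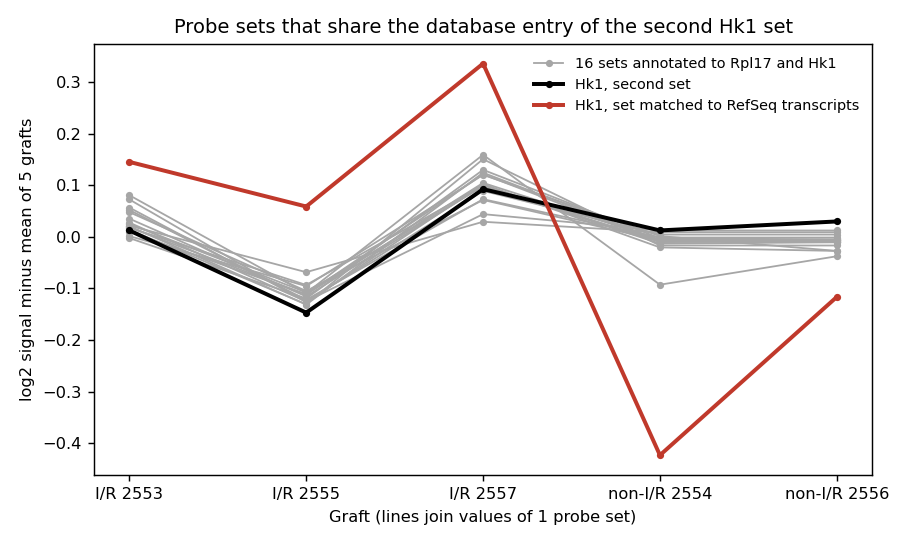
Log2 signal of each graft minus the mean of the 5 grafts (y axis), with I/R grafts on the left and non-I/R grafts on the right of the x axis. The second Hk1 set (black) runs with the 16 sets annotated to Rpl17 and Hk1 (grey), lowest in I/R 2555, and apart from the set matched to RefSeq transcripts (red).

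Many other genes ran with these over the 5 arrays. Among 1922 probe sets of other genes whose range over the arrays was at least 1 log2 unit, the signal of Slc2a4 was most like those of Abcb8, Trpt1 and Cers4 (Pearson r of 0.999 each over 5 arrays), and 339 had an r over 0.95. For Slc2a1 the most alike were AA467197, Sinhcaf and Htr2a (r of 0.999 each), with 199 over 0.95. For the RefSeq-matched Hk1 set they were Zfp37, Exosc2 and Nmt2 (r of 0.999, 0.998 and 0.997, over 1923 probe sets), with 183 over 0.95. Hk2 had 2 over 0.95, Cnksr1 and Hibadh (r of 0.964 and 0.957), followed by Klhl40 (0.938). These values rest on 5 arrays and are given as a description.

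Around these genes, 70 others of glucose uptake and of the first steps of glucose use were listed, 64 of which were measured, taking the brightest probe set of each. At the unadjusted threshold 10 were lower in I/R grafts (against 7.17% of 19938 genes) and 12 were higher (against 7.91%). The median log2 fold change was -0.017, against -0.0082 over all genes. The lists were drawn up with earlier results of these arrays known, and without non-I/R 2554 3 were lower and 8 were higher. Of the 22 calls, 18 lost the threshold when some 1 graft was left out. The 4 that did not were Tbc1d4, Myc, Pgd and Pgm2.

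Of 7 other members of the SLC2 family, Slc2a6, a transporter of lysosomes in macrophages, was higher, with 8.03, 8.41 and 8.19 in the I/R grafts against 7.73 and 7.82 in the non-I/R grafts (log2 fold change 0.44, SE 0.13, limma adjusted p = 0.304). Without I/R 2557, non-I/R 2554 or non-I/R 2556 it was no longer higher at the threshold. The fructose carriers Slc2a5 and Slc2a7, the urate carrier Slc2a9, the liver carrier Slc2a2, Slc2a10 and the inositol carrier Slc2a13 had log2 fold changes between -0.080 and 0.24. Among 7 genes of other entry routes and kinases, Adpgk, the ADP-dependent glucokinase, was higher by 0.50 (SE 0.12), and the sugar carrier Slc50a1 was lower, at a log2 fold change of -0.11 (SE 0.035). Adpgk lost the threshold without I/R 2553 or non-I/R 2554, and Slc50a1 without any 1 graft other than I/R 2555.

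Of 18 genes that move Slc2a4 vesicles, Tbc1d4 (AS160), the Rab GTPase-activating protein through which insulin releases them, was lower. It had 8.64, 8.22 and 8.27 in I/R 2553, 2555 and 2557, against 9.55 and 9.20 in non-I/R 2554 and 2556. The groups did not overlap, and the difference was -0.999 in log2 signal (SE 0.19, limma adjusted p = 0.282). Its relative Tbc1d1 had 0.41 and did not pass. The motor Myo1c, the tether Aspscr1 (TUG) and Rab8a were higher, with log2 fold changes of 0.55, 0.25 and 0.24. Thus 1 of 18 was lower (against 7.17% of all genes) and 3 were higher (against 7.91%). Without I/R 2557 none of these 3 passed, and without I/R 2553 or I/R 2555 only Rab8a did. None of the 3 calls held in every fit without 1 graft.

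Among 13 brakes and regulators, 5 were lower (against 7.17% of all genes) and 3 higher (against 7.91%). Lower were Ppargc1a, a coactivator that raises Slc2a4 in muscle cells, at a log2 fold change of -1.55 (SE 0.32), the muscle membrane-repair protein and ubiquitin ligase Trim72 (MG53) with -1.48 (SE 0.48), Klf15, which activates Slc2a4, with -0.99 (SE 0.30), Mef2c, a muscle transcription factor that binds the Slc2a4 promoter, with -0.42 (SE 0.14) and Epas1 (HIF-2α) with -0.33 (SE 0.11). Myc, known to raise Slc2a1 and hexokinase genes in growing cells, was higher by 1.40 (SE 0.25), and the arrestin Arrdc4, which draws glucose transporters off the surface, by 0.63 (SE 0.18). Mef2d was higher by 0.096 (SE 0.032). Txnip, the better known relative of Arrdc4, had -0.030 and Hif1a 0.18, neither past the threshold. Without non-I/R 2554 none of the 13 was lower at the threshold and 2 were higher. Without I/R 2557 the counts were 1 and 1, without I/R 2555 2 and 1, and without non-I/R 2556 2 and 2.

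At glucose 6-phosphate, where glycolysis, glycogen and the pentose phosphate pathway part, 3 of 13 enzymes were lower (against 7.17% of all genes) and 3 higher (against 7.91%). The muscle phosphofructokinase Pfkm had 10.81, 10.10 and 10.45 in I/R 2553, 2555 and 2557, against 11.57 and 11.28 in non-I/R 2554 and 2556, a log2 fold change of -0.97 (SE 0.25). The heart form of the fructose 2,6-bisphosphate enzyme, Pfkfb2, had -0.80 (SE 0.19) and the phosphoglucomutase Pgm1, which leads to and from glycogen, -0.73 (SE 0.16). In contrast, Pgd, an enzyme of the oxidative pentose phosphate pathway, had 11.08, 11.23 and 11.31 in the I/R grafts against 10.22 and 10.46 in the non-I/R grafts, a log2 fold change of 0.87 (SE 0.11). Pgm2, which acts mainly on pentose phosphates, had 0.82 (SE 0.13) and the stress-responsive isoform Pfkfb4 0.78 (SE 0.17). All 6 enzymes had groups that did not overlap. Of the 3 lower enzymes, only Pgm1 passed without I/R 2557, and without I/R 2555 Pfkfb2 did not pass. With 1 graft left out, log2 fold changes were -1.15 to -0.79 for Pfkm, -1.04 to -0.55 for Pfkfb2 and -0.80 to -0.60 for Pgm1. None of these 3 calls held in every fit without 1 graft. Pfkfb4 lost the threshold without non-I/R 2554.

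Of 6 partners of hexokinases at mitochondria, the kinase Akt1 was higher by 0.31 (SE 0.094), a call lost without any 1 graft other than I/R 2553. The outer membrane channels Vdac1, Vdac2 and Vdac3, to which Hk1 and Hk2 dock, had log2 fold changes of -0.42, -0.10 and -0.31 and did not pass the threshold.

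**Figure D5:**
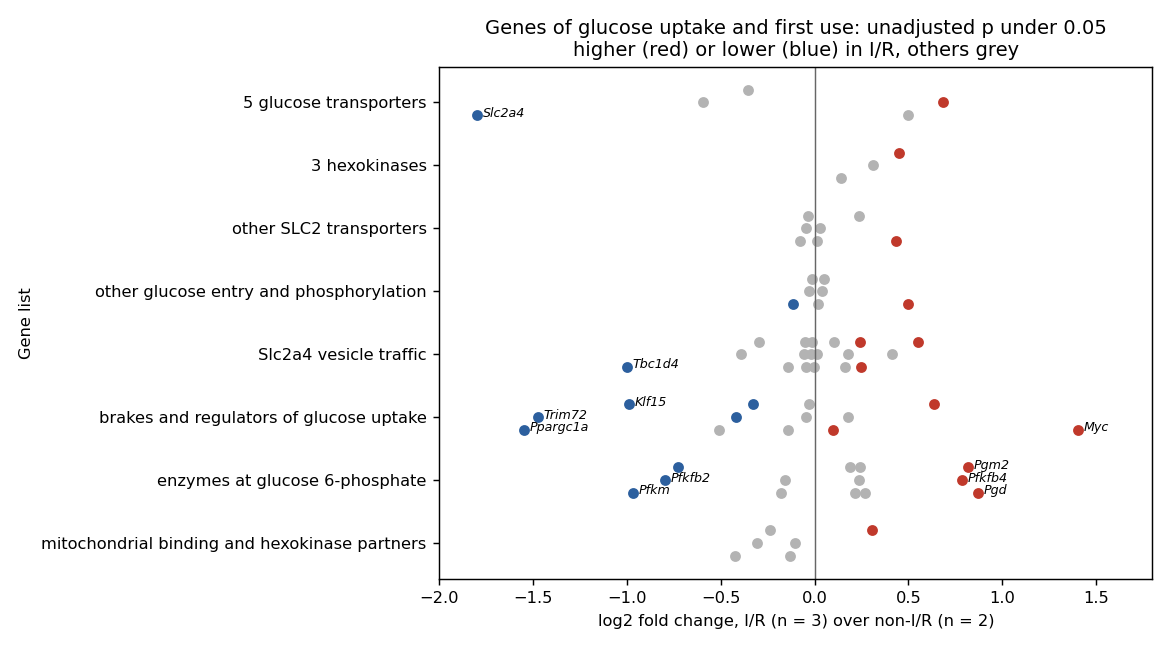
Log2 fold change of I/R (n = 3) over non-I/R grafts (n = 2) on the x axis for the 8 genes (top, with the RefSeq-matched set of Hk1) and for 6 lists of other genes (y axis, with points shifted up or down only for legibility). Red and blue points passed an unadjusted p of 0.05 in limma, higher and lower in I/R. Tbc1d4 at -0.999 and Pfkm at -0.97 lie on the side of Slc2a4, and Pgd at 0.87 on that of Slc2a1.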

How the data were processed

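Total RNA of 5 heart grafts had been hybridised to Affymetrix Mouse Gene 1.0 ST arrays, 1 array for each graft. The authors deposited log2 signals made with RMA in Partek (submitters' processing notes, no version given). RMA corrects background, equalises the distributions of the arrays and summarises the probes of a set, which can hide a shift shared by most genes. The genome build of the annotation was not given in the sources used here. Of 35556 probe sets, 21789 had a single symbol in the platform annotation, updated through gene IDs (99.6% found in the GRCm38.p6 table). The values were used as deposited, without filter.

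Groups were taken from the labels, which give neither batch nor recipient, so the p-values cover no more than the spread among these grafts. The labels give harvest at 24 h and the legends of the study day 2. I/R was compared with non-I/R over all single-symbol probe sets with limma 3.58.1 in R 4.3.3 (lmFit, eBayes, prior df 0.824), with Benjamini-Hochberg adjustment. Single differences within arrays were tested with a two-sided exact permutation test over 10 splits. The methods of the study used a 2-group ANOVA, called the methods' t-test here and run as an alternative. Other alternatives were moderation, array weights, normalization, filters, ties and leaving out grafts. Comparisons with heart muscle markers and the second choice of Hk1 probe set were added after the data were seen. The steps were tested on simulated data. Members, lists and alternatives were chosen with earlier results of these data known. All 8 genes were named, and from other lists those past the threshold, up to 4 with the smallest p, or any gene of lists of up to 8. Beyond that rule, Tbc1d1, Trim72, Mef2c, Mef2d, Epas1, Txnip, Hif1a, Pfkfb2 and Pfkm were named after their values were seen. Promoter sequences are from RefSeq (GRCm38.p6). Figures used Python 3.11.15 and matplotlib 3.10.9. Only these expression arrays were analysed here.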

Additional observations from a re-analysis of the deposited data

How the results depend on the processing

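No member probe set reached an adjusted p of 0.05 in limma or in the methods' t-test under any setting run, with 3 at an unadjusted p under 0.05 in limma and 2 in the t-test. Over 18 settings the log2 fold change of Slc2a4 ran from -2.30 to -1.18 and that of Slc2a1 from 0.49 to 0.88, neither changing sign, and they passed the unadjusted threshold in 15 and 14. Hk3 kept its direction in 18 settings, with log2 fold changes of 0.046 to 0.46. Slc2a8, Slc2a12 and the RefSeq-matched Hk1 set kept theirs in the 17 settings that held them. With 1 graft left out, 0 to 3 member sets were lower and 0 to 2 higher at that threshold, 3 to 9 other genes of the pathway were lower and 5 to 9 higher, and 1898 to 4147 of all probe sets passed. The second Hk1 set then ran from -0.088 to 0.031 and Hk2 from -0.12 to 0.40. The difference of Hk2 minus Hk1 ran from -0.073 to 0.43 with the brighter Hk1 set (0.18 with all grafts, -0.31 with the other Hk1 set), and Slc2a12 against heart muscle markers from -0.35 to 0.26. The methods' t-test gave 1 member set higher, 2014 probe sets in all and 6 other genes lower. Lower member sets numbered 2 with quantile normalization, median-centred arrays, cyclic loess, without probe sets equal on all arrays and with untied sets only. Taking 1 probe set per gene, which drops the RefSeq-matched Hk1 set, left 1 higher. Without both non-I/R 2554 and I/R 2555, no member set was higher, 3 other genes were lower and 5 higher, Slc2a1 minus Slc2a4 was 1.67, Hk2 minus the brighter Hk1 set -0.075, Slc2a4 against heart muscle markers -0.75 and Slc2a12 against the markers 0.24, and signs turned for Slc2a3 (-0.20), Hk2 (-0.052) and the second Hk1 set (0.023). The second Hk1 set also turned with array weights (0.013), quantile normalization (0.046) and without I/R 2555 (0.031), and Hk2 without non-I/R 2554. The causes were not tested. No paired analysis was possible because the labels give no replicate numbers. The number of arrays limits the precision.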
